A study of Mus musculus with 4 samples.

Results

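The 45 genes described here were the matrix metalloproteases (MMPs), the ADAMTS proteases and the tissue inhibitors of metalloproteases (TIMPs) of the mouse, taken from the 54532 Ensembl genes of the deposited count table as the protein-coding genes with an Mmp, Adamts or Timp symbol. They were 22 MMPs, 19 ADAMTS proteases and 4 TIMPs. The libraries were labelled as tumor-associated macrophages (TAMs) from tumors of NB9464, a mouse neuroblastoma cell line with *MYCN* amplification, grown in mice on a C57BL/6 background. Mice a few weeks old received NB9464 cells and no treatment, and tumors were taken at day 40. Libraries M7 and M8 were labelled Syk MC-WT, and M9 and M10 were labelled Syk MC-KO, a genotype with floxed *Syk* and Cre driven by lysozyme M (*Lyz2*), which is active in myeloid cells in general and not in macrophages alone. CD11b and F4/80 beads were used to collect cells from both genotypes and polyA RNA was sequenced, but the labels also name bone marrow-derived macrophages as the RNA source and the title of the series speaks of adoptive transfer. Whether the Syk MC-WT mice carried Cre and whether the 2 libraries of a genotype came from separate mice are not stated in the sources used here, so p-values measure only the spread between these libraries, which may be technical.

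MMPs are zinc proteases that cut collagens, elastin and other matrix proteins, some secreted and some anchored in the cell membrane. ADAMTS proteases carry thrombospondin repeats. Several of them cut proteoglycans, and 3 of the 19 are grouped here as procollagen N-proteinases, which trim fibrillar procollagens. TIMPs bind the active site of these enzymes and block them, and the balance of protease and inhibitor sets how fast tumor matrix is remodelled. Macrophages are a known source of metalloelastase (*Mmp12*), neutrophils of collagenase 2 (*Mmp8*), and fibroblasts of gelatinase A (*Mmp2*) and of many ADAMTS proteases.

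Total counts were 20755886 to 23518045 per library, so that 3 counts, the smallest signal taken as detectable, corresponded to 0.109 to 0.163 CPM (counts scaled to a common, TMM-normalized library total), for counting error only. *Syk* was at 27.9 and 23.2 CPM in M7 and M8 and at 196 and 160 CPM in M9 and M10, a log2 fold change of 2.80 (SE 0.194, adjusted p = 0.000674), which became -0.01 when libraries were scaled to 10 macrophage markers and -0.83 when scaled to 6 pan-leukocyte genes. *Lyz2*, whose locus drives Cre, had 296 and 208 CPM in M7 and M8 and 8.64 and 20.2 CPM in M9 and M10 (-4.13, SE 0.433, adjusted p = 0.00156). With TMM the targeted gene went against the labels, and every direction below is that of the libraries labelled Syk MC-KO relative to those labelled Syk MC-WT. The 10 macrophage markers summed to 803 to 1135 CPM in M7 and M8 and to 5702 to 9531 CPM in M9 and M10, while the 8 fibroblast markers summed to 3088 to 3145 CPM and to 936 to 1222 CPM. Mitochondrial genes took 2.20% to 2.34% of the counts in M7 and M8, 6.00% in M9 and 15.9% in M10. In bulk RNA, fewer cells of a type and less RNA per cell cannot be told apart.

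In the libraries labelled Syk MC-KO, 7 of the 17 MMPs tested rose and 3 fell, none of the 15 ADAMTS proteases tested rose and 12 fell, and none of the 4 TIMPs rose and 2 fell. Of all 45 genes, 36 passed the filter on low counts, and 7 of these rose, 17 fell and 12 did not pass an adjusted p of 0.05 (quasi-likelihood test of edgeR, Benjamini-Hochberg adjustment over all genes tested). Among all 16451 genes tested, 22.7% rose and 16.7% fell. The median log2 fold change was -0.23 for the MMPs, -2.02 for the ADAMTS proteases and -1.20 for the TIMPs, beside 0.02 for all genes. Both libraries labelled Syk MC-KO lay above both labelled Syk MC-WT for 8 of the 36 genes and below them for 23, against 38% and 37.2% of all genes tested. A lack of overlap was thus common among all genes and adds little to the call of a single gene. For the 0 ADAMTS proteases called higher, 0 had a positive change at an unadjusted p under 0.05, and the DESeq2 Wald test, by which 19.6% of all genes rose and 15.9% fell, also called 0. For the 0 TIMPs called higher, both of these counts were again 0.

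**Figure D1:**
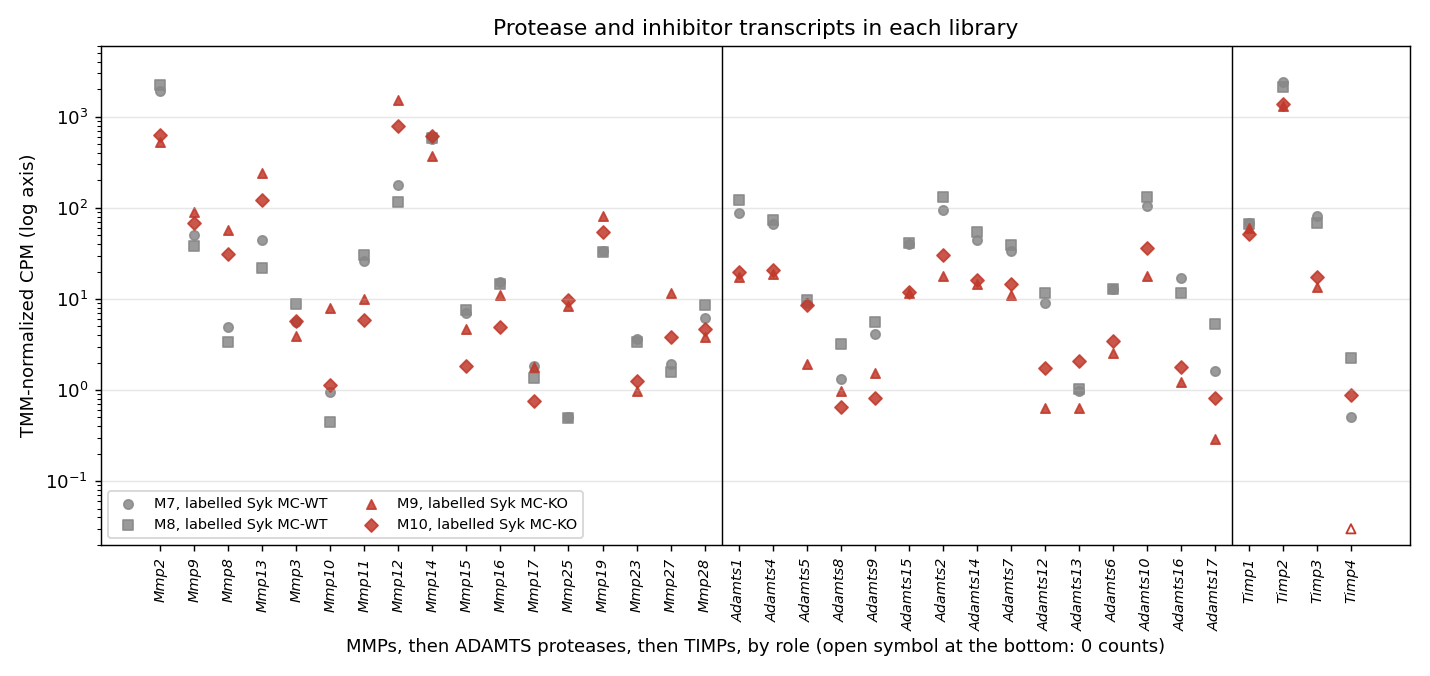
TMM-normalized CPM (log axis) of the 36 genes that passed the filter, one symbol per library (grey circle M7, grey square M8, red triangle M9, red diamond M10), with MMPs, ADAMTS proteases and TIMPs separated by vertical lines. Most red symbols of the ADAMTS proteases lie below the grey ones, whereas *Mmp12*, at 793 and 1542 CPM in M10 and M9, lies above its 116 and 177 CPM in M8 and M7.

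The members also differ in where they start. Of the 7 MMP genes that rose, 4 sit in 1 cluster on chromosome 9 (GRCm38, 7272514 to 7699585), whose 9 members lie in the order *Mmp13*, *Mmp12*, *Mmp1b*, *Mmp3*, *Mmp10*, *Mmp8*, *Mmp27*, *Mmp20* and *Mmp7*. Of the 6 cluster genes tested, *Mmp13*, *Mmp12*, *Mmp8* and *Mmp27* rose, and *Mmp10* and *Mmp3* did not pass the test. Promoter windows of 250 bases before a RefSeq start (GRCm38.p6) were found for 31 of the 45 genes and are shown for the 3 cluster genes with the most counts among those that rose and for *Adamts2*, a fibrillar procollagen processor that fell. All are on the plus strand and written 5′ to 3′, up to the base before the start: *Mmp13* at chr9:7272264-7272513, *Mmp12* at chr9:7344147-7344396 (its upstream start) and chr9:7347124-7347373 (its downstream start, an intron of the longer transcripts), *Mmp8* at chr9:7558179-7558428 and *Adamts2* at chr11:50601835-50602084. Capitals mark matches to 4 motifs chosen after the windows had been seen, searched on both strands and not overlapping here. The AP-1 motif was TGACTCA. The TATA box was searched as TATAAA. The Ets motif was GAGGAAGT. The GC box was CCGCCC.
Mmp13: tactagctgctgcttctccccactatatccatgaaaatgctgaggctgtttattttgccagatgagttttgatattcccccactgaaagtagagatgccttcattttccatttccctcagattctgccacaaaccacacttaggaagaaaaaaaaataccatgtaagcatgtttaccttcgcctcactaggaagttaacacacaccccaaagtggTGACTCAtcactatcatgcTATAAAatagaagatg
Mmp12 upstream start: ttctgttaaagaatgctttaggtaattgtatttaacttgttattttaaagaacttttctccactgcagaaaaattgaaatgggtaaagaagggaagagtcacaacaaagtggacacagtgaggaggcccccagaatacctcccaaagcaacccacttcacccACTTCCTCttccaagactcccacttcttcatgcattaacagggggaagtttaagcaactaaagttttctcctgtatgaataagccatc
Mmp12 downstream start: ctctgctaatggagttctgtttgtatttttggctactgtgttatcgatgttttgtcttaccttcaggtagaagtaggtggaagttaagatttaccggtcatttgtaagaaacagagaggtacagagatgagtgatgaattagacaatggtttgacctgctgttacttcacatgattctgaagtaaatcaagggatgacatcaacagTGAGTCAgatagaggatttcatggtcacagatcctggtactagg
Mmp8: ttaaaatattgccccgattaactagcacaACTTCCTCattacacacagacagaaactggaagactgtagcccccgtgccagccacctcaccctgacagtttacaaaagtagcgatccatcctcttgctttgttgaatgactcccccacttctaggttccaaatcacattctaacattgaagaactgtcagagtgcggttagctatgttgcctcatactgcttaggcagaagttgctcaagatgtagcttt
Adamts2: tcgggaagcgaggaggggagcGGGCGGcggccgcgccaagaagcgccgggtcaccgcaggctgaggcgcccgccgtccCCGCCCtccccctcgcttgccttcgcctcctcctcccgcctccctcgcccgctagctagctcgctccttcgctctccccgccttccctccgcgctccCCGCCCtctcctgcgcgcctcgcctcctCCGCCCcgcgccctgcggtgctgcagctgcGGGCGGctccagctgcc

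In the *Mmp13* window the AP-1 letters began 35 bases and the TATA letters 16 bases before the start. In the *Mmp12* windows the Ets letters began 88 bases before the upstream start and the AP-1 letters 44 bases before the downstream start, and in the *Mmp8* window the Ets letters began 221 bases before the start. The AP-1 letters were in the windows of 6 of the 9 cluster genes and in none of the 8 other MMPs, 10 ADAMTS proteases and 4 TIMPs with a window, beside 4.46% of all 32851 windows. The GC box was in the windows of 0 of the 9 cluster genes, 6 of the 8 other MMPs, 7 of the 10 ADAMTS proteases and 3 of the 4 TIMPs, beside 32.7% of all windows. The TATA letters were in 6 cluster genes (12.4% of all windows) and the Ets letters in 3 (2.44%). The cluster genes with AP-1 letters were *Mmp10*, *Mmp12*, *Mmp13*, *Mmp1b*, *Mmp3* and *Mmp7*, so genes that rose, genes that did not pass and genes without counts all held them. Cluster genes are related copies and are not independent, and a match is a description of the letters and not of a bound site.

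Among the gelatinases, which cut denatured collagen and basement membrane collagen, *Mmp2* (ENSMUSG00000031740, chromosome 8, 92827291 to 92853420) was the MMP with the most counts in M7 and M8. It was at 1916 and 2238 CPM in M7 and M8 and at 524 and 635 CPM in M9 and M10. *Mmp2* fell by 1.84 on the log2 scale (SE 0.237, adjusted p = 0.00271), from 2077 ± 228 CPM to 580 ± 78.8 CPM (SD, n = 2), and the genotypes did not overlap. *Mmp9*, gelatinase B, was at 50.5 and 38.3 CPM and at 89.7 and 67.8 CPM in the same order. It rose by 0.83 (SE 0.215, adjusted p = 0.0255) with no overlap, and did not pass without M8 (0.63) or with library size only (0.30). The ratio of *Mmp9* to *Mmp2* within a library, which does not depend on how libraries are scaled, was 0.0251 and 0.0163 in M7 and M8 and 0.163 and 0.102 in M9 and M10. With 2 libraries against 2, an exact two-sided permutation test of a ratio cannot go below 0.333, which was its p.

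The collagenases and the metalloelastase all lie in the chromosome 9 cluster. *Mmp12* (ENSMUSG00000049723, 7344381 to 7369499), the macrophage metalloelastase, was at 177 and 116 CPM in M7 and M8 and at 1542 and 793 CPM in M9 and M10. It rose by 3.0 (SE 0.393, adjusted p = 0.00285), and M9 was well above M10, so that without M9 the rise was 2.35. *Mmp13*, collagenase 3, was at 44.7, 22, 243 and 123 CPM in M7, M8, M9 and M10. It rose by 2.45 (SE 0.439, adjusted p = 0.00754), and by 3.05 without M7 and 1.80 without M9. *Mmp8*, the collagenase that neutrophils store in granules, was at 4.92, 3.34, 57.3 and 31.2 CPM. It rose by 3.42 (SE 0.368, adjusted p = 0.00162), and by 2.82 without M9. For each of these 3 genes both libraries labelled Syk MC-KO were above both others, M9 was the highest library and M8 the lowest. The third collagenase gene, *Mmp1b*, had 0 counts in every library, and so did its neighbour *Mmp1a*, which is annotated as a polymorphic pseudogene and is not counted among the 45.

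Of the stromelysins, which cut proteoglycans and fibronectin and can activate other MMPs, none rose. *Mmp10*, stromelysin 2, was at 0.948 and 0.448 CPM in M7 and M8 and at 7.86 and 1.14 CPM in M9 and M10. Its log2 fold change of 2.68 (SE 0.956, adjusted p = 0.0661) did not pass, although the genotypes did not overlap, and it rested on M9, with 0.61 without it. It passed without M10 (3.49), when all genes with at least 1 count or with at least 10 counts in every library were tested, and by the DESeq2 Wald test. *Mmp3*, stromelysin 1, was at 5.65, 8.79, 3.88 and 5.72 CPM, with overlap between the genotypes and a log2 fold change of -0.59 (SE 0.384, adjusted p = 0.262). Without M10 it was called, at -0.88. *Mmp11*, stromelysin 3, lies outside the cluster on chromosome 10 and is known from stromal fibroblasts of carcinomas. It was at 25.8, 30.4, 9.95 and 5.88 CPM and fell by 1.83 (SE 0.294, adjusted p = 0.00535) without overlap. *Mmp7*, matrilysin, had 0 counts in every library.

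**Figure D2:**
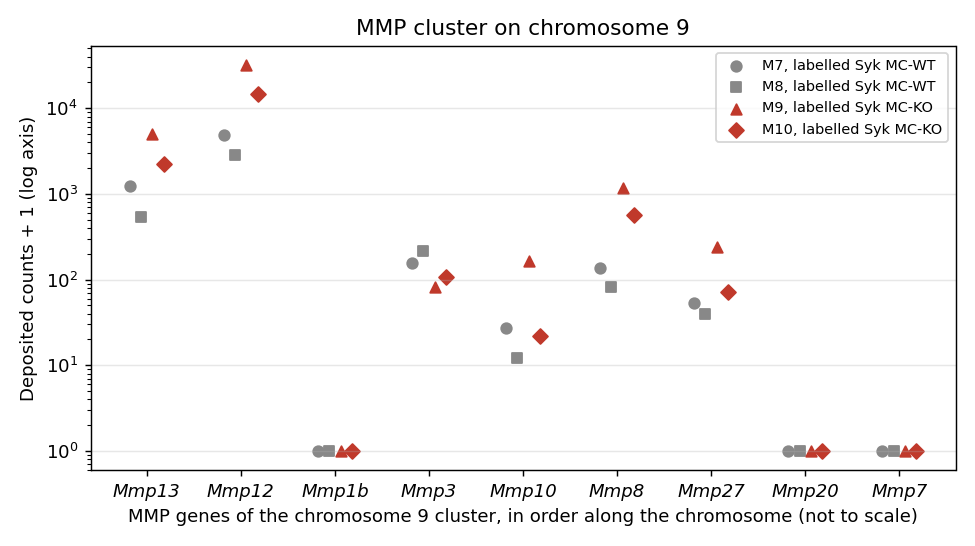
Deposited counts plus 1 (log axis) of the 9 MMP genes of the chromosome 9 cluster, in their order along the chromosome and not to scale, with one symbol per library as in the plot of all members. *Mmp12*, with 31768 counts in M9, and *Mmp13* hold the most counts, *Mmp3* alone among the detected genes has M8 as its highest library, and *Mmp1b*, *Mmp20* and *Mmp7* have 0 counts in every library.

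The membrane-type MMPs sit on the cell surface, where *Mmp14* activates pro-MMP2 together with TIMP2. *Mmp14* was at 565, 592, 371 and 616 CPM in M7, M8, M9 and M10, so M10 was the highest library and M9 the lowest. Its log2 fold change was -0.23 (SE 0.270, adjusted p = 0.530), and -0.63 without M10, when it was called. *Mmp25*, a membrane MMP of leukocytes, was at 0.510 and 0.488 CPM in M7 and M8 and at 8.35 and 9.70 CPM in M9 and M10. It rose by 4.16 (SE 0.402, adjusted p = 0.00124), the largest rise among the 36 genes, with both libraries of a genotype close together. *Mmp15* was at 7.04, 7.49, 4.71 and 1.85 CPM (-1.14, SE 0.486, adjusted p = 0.107), and *Mmp16* at 15.3, 14.4, 11.2 and 4.90 CPM (-0.89, SE 0.395, adjusted p = 0.119). For both, M10 was well below the other 3 libraries, and both were called without M9 (-2.05 and -1.69). They were also called when all genes with at least 1 count were tested, and with library size only (-1.64 and -1.39). *Mmp17* was at 1.82, 1.34, 1.80 and 0.763 CPM with overlap (-0.30, SE 0.634, adjusted p = 0.732), and turned to 0.19 without M10. *Mmp24* had 8 counts in M8 and 0 in the others.

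The remaining MMPs have less settled roles. *Mmp19*, found in many tissues, was at 33.7 and 32.6 CPM in M7 and M8 and at 81.6 and 53.7 CPM in M9 and M10. It rose by 1.03 (SE 0.226, adjusted p = 0.0146), but did not pass without M7 (1.05), without M8 (1.0) or with library size only (0.51), and was 0.61 without M9. Its exons share 789 bases with *Tmem198b* on the other strand, which had 726, 662, 371 and 260 counts in M7, M8, M9 and M10. *Mmp27*, the last tested gene of the cluster, was at 1.93, 1.59, 11.7 and 3.87 CPM and rose by 2.15 (SE 0.584, adjusted p = 0.0287). It did not pass without M7 (2.30), without M8 (2.0) or with library size only (1.65), and was 1.05 without M9 and 2.75 without M10. *Mmp23* was at 3.68, 3.34, 0.971 and 1.25 CPM and fell by 1.66 (SE 0.472, adjusted p = 0.0332), but did not pass without M7 (-1.58) or M8 (-1.73). *Mmp28*, epilysin, was at 6.23, 8.59, 3.79 and 4.69 CPM without overlap, but its change of -0.81 (SE 0.345, adjusted p = 0.108) passed only without M10 (-0.95) among the libraries left out. *Mmp20*, enamelysin, had 0 counts in every library, and *Mmp21* had 1 count in M7 and 0 in the others.

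Summed over the family, MMP transcripts were at 2861 and 3119 CPM in M7 and M8 and at 2973 and 2360 CPM in M9 and M10, so the totals overlapped while their makeup differed. Levels of different genes were compared per kilobase of exon, and there *Mmp2* made up 75.7% and 79.7% of the summed MMP level in M7 and M8 and 25.3% and 37.2% in M9 and M10. *Mmp12* went the other way, with 3.26% and 1.92% against 34.7% and 21.6%. *Mmp13* took 2.23% and 0.989% against 14.8% and 9.10%, and *Mmp8* 0.270% and 0.165% against 3.85% and 2.53%. *Mmp14* took 12.6%, 11.9%, 10.1% and 20.4% in M7, M8, M9 and M10, with overlap. Within a library, the ratio of *Mmp12* to *Mmp2* was 0.0430 and 0.0241 in M7 and M8 and 1.37 and 0.582 in M9 and M10 (exact permutation p = 0.333, the smallest possible). The summed exons of *Mmp12* span 7237 bases and its principal transcript 3607. Per kilobase of the principal transcript, its share was 5.11%, 3.06%, 45.8% and 28.4%, and the ratio was 2.51 in M9 and 1.07 in M10.

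**Figure D3:**
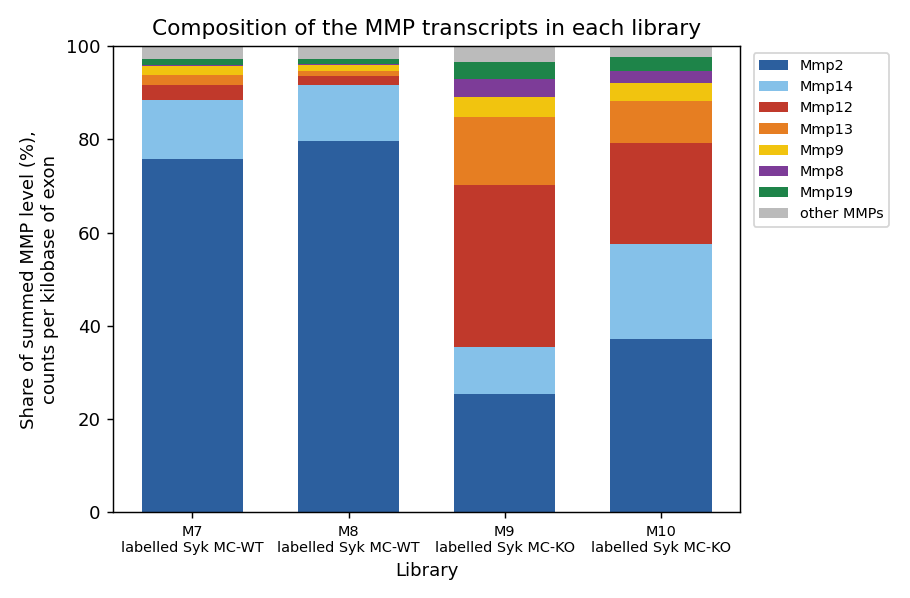
Share of the summed MMP level in each library (percent, counts per kilobase of exon), stacked by gene. *Mmp2* (dark blue) fills 75.7% and 79.7% of the bars of M7 and M8, whereas *Mmp12* (red) fills 34.7% of M9 and 21.6% of M10 beside smaller *Mmp2* bars.

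Among the ADAMTS proteases, 6 of the 7 hyalectanases, which cut aggrecan and versican, were tested, and 4 of them fell. *Adamts1* (ENSMUSG00000022893) was at 86.9 and 121 CPM in M7 and M8 and at 17.6 and 19.7 CPM in M9 and M10, and fell by 2.48 (SE 0.215, adjusted p = 0.000941). *Adamts4* was at 67.2 and 74.1 CPM and at 18.8 and 20.8 CPM, and fell by 1.83 (SE 0.164, adjusted p = 0.00101). *Adamts15* was at 40.5 and 41.2 CPM and at 11.6 and 12 CPM, and fell by 1.79 (SE 0.168, adjusted p = 0.00115). For these 3 genes the libraries of a genotype were close together and far from those of the other. *Adamts9* was at 4.16, 5.53, 1.55 and 0.817 CPM and fell by 2.02 (SE 0.506, adjusted p = 0.0223), but did not pass without M7 (-2.21) or M8 (-1.81), and was -2.65 without M9. *Adamts5*, a main aggrecanase of cartilage, was at 8.93, 9.64, 1.94 and 8.5 CPM, so that M10 was nearly at the level of M7. Its change of -0.84 (SE 0.626, adjusted p = 0.325) passed without M10 (-2.24). *Adamts8* was at 1.31, 3.21, 0.971 and 0.654 CPM without overlap (-1.47, SE 0.665, adjusted p = 0.123), and passed without M9 (-1.87). *Adamts20* had at most 5 counts in any library.

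Both tested procollagen N-proteinases, which trim fibrillar procollagens, fell. *Adamts2* (ENSMUSG00000036545, chromosome 11, 50602084 to 50807573) was at 95.5 and 131 CPM in M7 and M8 and at 17.8 and 30.2 CPM in M9 and M10. It fell by 2.24 (SE 0.297, adjusted p = 0.00292). *Adamts14* was at 44.8 and 54.7 CPM and at 14.5 and 16.0 CPM, and fell by 1.70 (SE 0.185, adjusted p = 0.00167). The genotypes did not overlap for either gene, and *Adamts3*, the third of this group, had at most 3 counts in any library. *Adamts7* and *Adamts12*, which cut cartilage oligomeric matrix protein, fell too. *Adamts7* was at 33.3, 39.1, 11 and 14.7 CPM (-1.5, SE 0.216, adjusted p = 0.00382). *Adamts12* was at 8.97, 11.6, 0.631 and 1.74 CPM (-3.12, SE 0.529, adjusted p = 0.00628), with -4.00 without M10. In both genes M9 was the lowest library. *Adamts13*, which cuts von Willebrand factor in blood and is made mainly in the liver, was at 0.984, 1.02, 0.631 and 2.07 CPM with overlap (0.43, SE 0.731, adjusted p = 0.673), and turned to -0.65 without M10.

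Of the other ADAMTS proteases, the 4 tested all fell without overlap, beside 16.7% of all genes tested that fell and 37.2% that lay below without overlap. *Adamts10*, a fibrillin-binding member, was at 106 and 132 CPM in M7 and M8 and at 17.7 and 36.2 CPM in M9 and M10, and fell by 2.14 (SE 0.342, adjusted p = 0.00518). Without M10 its change was -2.73. *Adamts16* was at 16.8 and 11.5 CPM and at 1.21 and 1.80 CPM, and fell by 3.23 (SE 0.377, adjusted p = 0.00204), the largest fall among the 36 genes. *Adamts6* was at 13.0 CPM in both M7 and M8 and at 2.57 and 3.49 CPM in M9 and M10, and fell by 2.10 (SE 0.301, adjusted p = 0.00378). *Adamts17* was at 1.60, 5.37, 0.291 and 0.817 CPM, with M8 well above M7, and fell by 2.65 (SE 0.828, adjusted p = 0.0442). It did not pass without M8 (-1.54), and was -3.27 without M7 and -3.54 without M10. *Adamts18* had 0 counts in every library and *Adamts19* at most 1. Summed over the family, ADAMTS transcripts were at 530 and 655 CPM in M7 and M8 and at 119 and 170 CPM in M9 and M10. The ratio of the summed MMP to the summed ADAMTS level per kilobase of exon was 9.63 and 8.64 in M7 and M8 and 33.8 and 20.6 in M9 and M10 (exact permutation p = 0.333, the smallest possible).

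All 4 TIMPs passed the filter. *Timp2* (ENSMUSG00000017466, chromosome 11, 118301069 to 118355740), which both inhibits MMPs and takes part in activating pro-MMP2, was at 2434 and 2114 CPM in M7 and M8 and at 1326 and 1391 CPM in M9 and M10. It fell by 0.74 (SE 0.229, adjusted p = 0.0427), but did not pass without M7 (-0.64) or M8 (-0.85). *Timp3* (ENSMUSG00000020044), the matrix-bound TIMP that also blocks ADAMTS aggrecanases, was at 80.6, 67.8, 13.6 and 17.4 CPM. It fell by 2.26 (SE 0.201, adjusted p = 0.000996). Its exons share 1733 of 8144 bases with *Syn3* on the other strand, a gene with at most 50 counts in any library. For *Timp2* and *Timp3* the genotypes did not overlap. *Timp1*, an inducible TIMP, was at 68.9, 66.1, 60.6 and 51.4 CPM, with no overlap but a change of -0.27 (SE 0.159, adjusted p = 0.220) that passed only without M9 (-0.48) among the libraries left out. *Timp4* had 14, 55, 0 and 16 counts in M7, M8, M9 and M10, with overlap and a change that did not pass (adjusted p = 0.380). It was called without M10, when the only remaining library labelled Syk MC-KO had 0 counts, so no fold is given.

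Within a library, the ratio of the summed MMP to the summed TIMP level per kilobase of exon was 1.05 and 1.33 in M7 and M8 and 1.5 and 1.22 in M9 and M10, with overlap (exact permutation p = 0.667). Per kilobase of principal transcript the ratios were 1.28 and 1.59 against 2.18 and 1.77, without overlap (p = 0.333, exact permutation test). *Mmp14* to *Timp2* was 0.152, 0.183, 0.183 and 0.289 in M7, M8, M9 and M10 (exact permutation p = 0.667). *Timp1* to *Timp2* was 0.124 and 0.137 against 0.201 and 0.162 (exact permutation p = 0.333). Over 6 such ratios, no adjusted p can reach 0.05. In order of level per kilobase of exon, *Mmp2* (616 CPM per kilobase ± 67.5, SD, n = 2) and *Timp2* (584 ± 58.0) led in M7 and M8 and did not differ beyond their spread, followed by *Mmp14* (97.1 ± 3.26), *Timp1* (76.0 ± 2.27) and *Mmp12* (20.2 ± 5.98). In those labelled Syk MC-KO the order was *Timp2* (349 ± 11.9), *Mmp2* (172 ± 23.4), *Mmp12* (161 ± 73.2), *Mmp14* (82.8 ± 29.0), *Mmp13* (68.5 ± 31.6) and *Timp1* (63.0 ± 7.33). There *Timp2* lay above *Mmp2* beyond the spread of both, whereas *Mmp2* and *Mmp12*, *Mmp14* and *Mmp13*, and *Mmp13* and *Timp1* differed by less than the larger SD of the pair. Per kilobase of principal transcript the order there was *Timp2* (366 ± 12.5), *Mmp12* (324 ± 147), *Mmp14* (190 ± 66.7), *Mmp2* (188 ± 25.6), *Mmp13* (68.5 ± 31.6) and *Timp1* (63.4 ± 7.37), so the place of *Mmp2* among the MMPs depended on the length used.

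Marker lists of cell types moved with these families, where 22.7% of all genes tested rose and 16.7% fell. All 10 macrophage markers rose, by 0.57 to 3.57 (median 3.01), and all 6 pan-leukocyte genes rose (median 3.57). Of 6 neutrophil markers, 5 were tested and rose (median 3.12), with summed levels of 24.6 and 39.3 CPM in M7 and M8 and 407 and 201 CPM in M9 and M10, while the defining marker *Ly6g* was at or near 0 throughout, at 0.243 CPM or less. Of 8 fibroblast markers, 5 fell (median -1.41), and of 7 pericyte markers 5 fell (median -1.41), with summed levels of 546 and 512 CPM in M7 and M8 and 123 and 186 CPM in M9 and M10. Of 8 endothelial markers, 4 fell (median -0.97, summed levels of 132 to 208 CPM). Of 7 tumor cell markers, *Th* and *Dbh* were at 0 in every library, 3 were tested and 1, *Gata3*, rose, with the summed level of 182 to 302 CPM nearly all from *Hand2*. The changes of *Mmp12* (3.0), *Mmp8* (3.42) and *Mmp25* (4.16) lay within the range of the pan-leukocyte genes (2.99 to 4.56). The other MMPs that rose were *Mmp13* (2.45), *Mmp27* (2.15), *Mmp19* (1.03) and *Mmp9* (0.83). They rose by less than every pan-leukocyte gene and every tested neutrophil marker. They also rose by less than every macrophage marker except *Mertk* (0.57), the next lowest being *Csf1r* (2.61). The median ADAMTS change (-2.02) lay below the fibroblast median. The part of these cell types in the changes of the proteases was not tested.

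**Figure D4:**
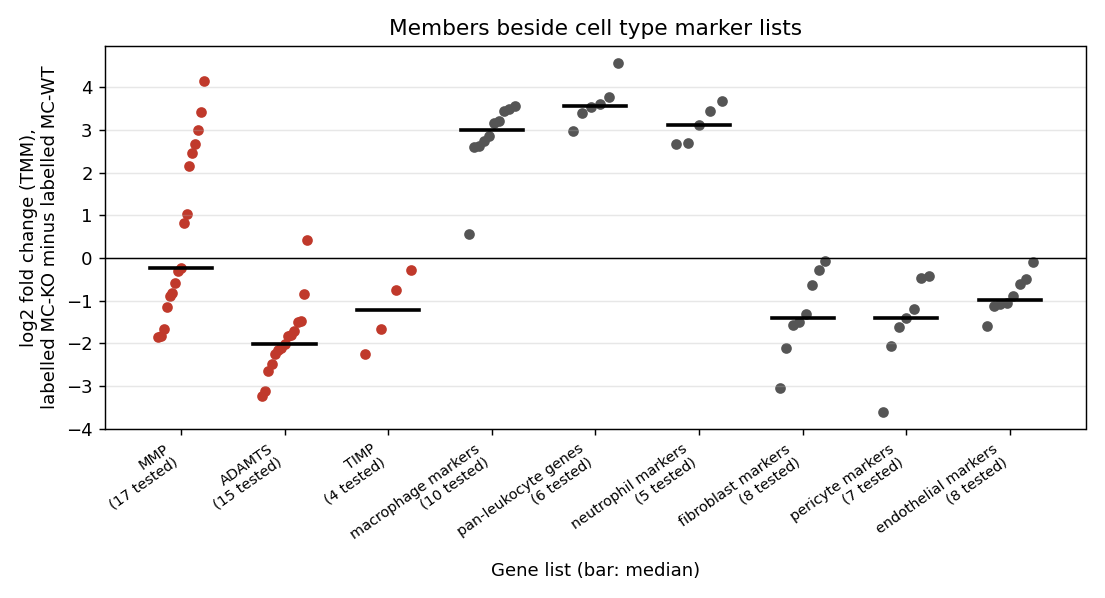
Log2 fold change (TMM, libraries labelled Syk MC-KO minus those labelled Syk MC-WT) of each tested gene of the 3 families (red) and of 6 cell type marker lists (dark grey), with a bar at each list's median. The MMPs span from the fibroblast, pericyte and endothelial markers up to the macrophage, leukocyte and neutrophil markers, and the ADAMTS proteases lie almost wholly below 0.

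When the libraries were scaled so that the macrophage markers were level, none of the 36 genes rose and 30 fell, beside 0.766% and 87% of all genes. Under that scaling *Mmp25* was at 1.41, *Mmp8* at 0.57 and *Mmp12* at 0.14, none of which passed, and *Mmp13* (-0.36), *Mmp27* (-0.79), *Mmp19* (-1.84) and *Mmp9* (-1.99) changed sign. With library size only, 4 rose and 23 fell, beside 10.2% and 32.9% of all genes. Scaled to the pan-leukocyte genes, none rose and 32 fell, beside 0.334% and 92.8% of all genes, and *Mmp8* (-0.24) and *Mmp12* (-0.67) changed sign too. Scaled to the fibroblast markers, 11 of the 36 genes rose and 5 fell, beside 60.7% and 2.1% of all genes, and 4 of the 15 ADAMTS proteases (*Adamts1*, *Adamts2*, *Adamts12* and *Adamts16*) still fell. *Mmp2* (-0.49) and the other 8 ADAMTS proteases that fell with TMM, such as *Adamts4* (-0.47) and *Adamts15* (-0.42), did not pass under that scaling. These scalings moved the median of all genes to -2.78 (macrophage), -3.60 (leukocyte) and 1.38 (fibroblast).

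**Figure D5:**
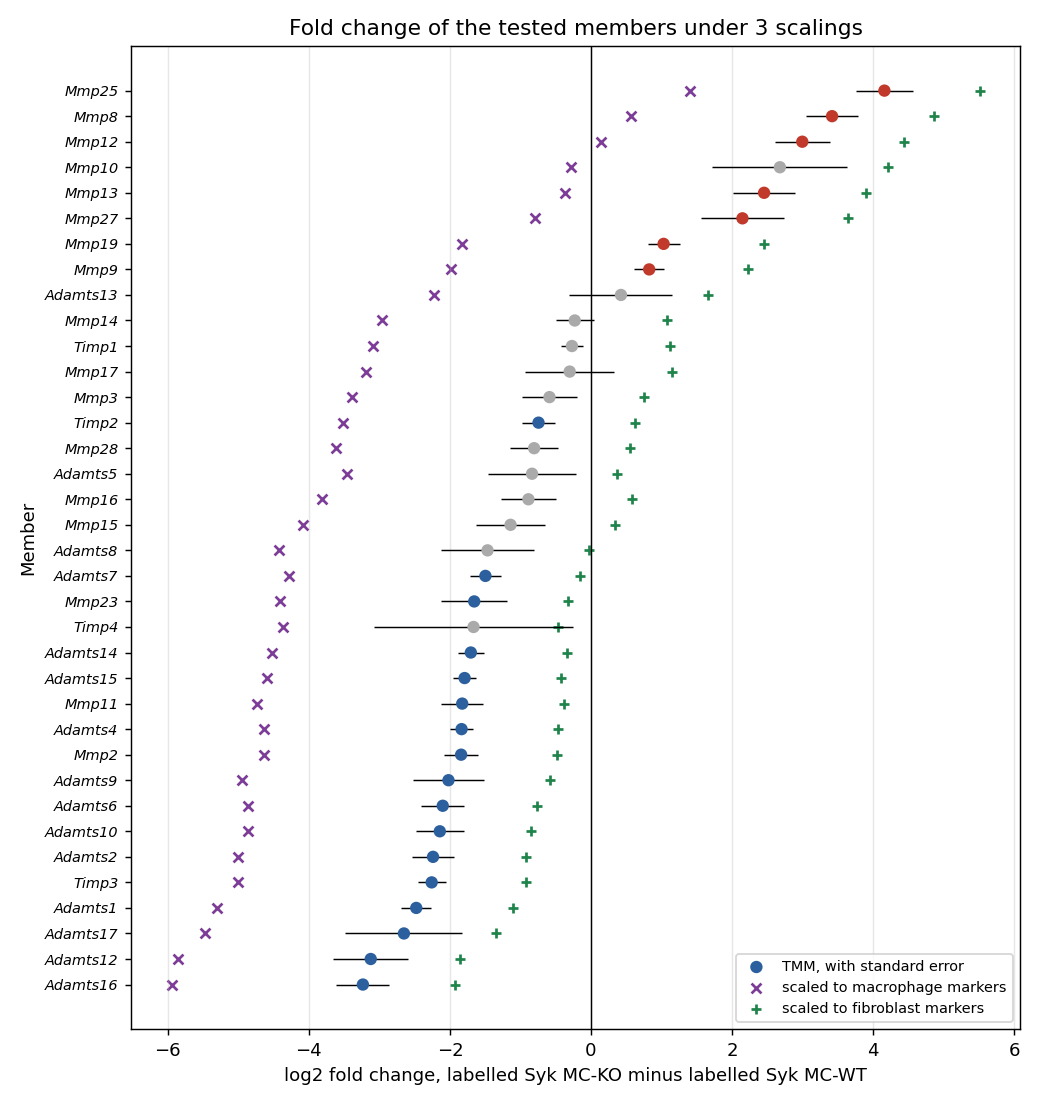
Log2 fold change of the 36 tested genes with TMM (circles with standard error, red where called higher, blue where called lower, grey where not called), scaled to 10 macrophage markers (purple crosses) and scaled to 8 fibroblast markers (green plus signs). *Mmp25*, *Mmp8* and *Mmp12* have a positive value under all 3, but did not pass when scaled to macrophage markers. *Mmp2* and the called ADAMTS proteases have a negative value under all 3. *Mmp2* and 8 of those 12 ADAMTS proteases did not pass when scaled to fibroblast markers.

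Other genes of the pathway were counted by list, beside the 22.7% of all genes tested that rose and the 16.7% that fell. Of 9 membrane ADAMs, which shed surface proteins, 4 rose and 1 fell (median 0.79). The most abundant were *Adam8*, a leukocyte ADAM, which rose by 2.71 (adjusted p = 0.00229), *Adam15*, which rose by 1.35 (adjusted p = 0.00232), and *Adam9* (0.60) and *Adam10* (0.41), which did not pass. The 1 that fell, *Adam12*, named here after its value was seen, changed by -2.41 (adjusted p = 0.000626), from 150 and 151 CPM in M7 and M8 to 28.9 and 27.7 CPM in M9 and M10. Of 6 ADAMTS-like proteins, which lack the protease domain, 4 were tested and 2 fell, *Papln* by 3.16 and *Adamtsl1* by 4.44, while *Adamtsl4* (0.04) and *Adamtsl5* (0.49) did not pass.

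Of 12 genes for activation, surface docking and clearance of these proteases, 7 rose and 3 fell (median 1.11), beside 22.7% and 16.7% of all genes tested. The most abundant, the clearance receptor *Lrp1* (-0.22) and the MMP inducer *Bsg* (0.24), did not pass. *Cd44*, a surface anchor of MMP9, rose by 1.68 (adjusted p = 0.00476). Of 10 substrate genes, 8 were tested, none rose and 4 fell (median -1.38), and 0 of the 8 had a positive change at an unadjusted p under 0.05 or were called higher by the DESeq2 Wald test. The collagens *Col3a1*, *Col1a1* and *Col1a2* fell, with changes of -1.69, -1.52 and -1.48 (adjusted p = 0.00525, 0.0101 and 0.00513), and *Vcan*, the versican cut by hyalectanases, was at -0.28 (adjusted p = 0.186).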

How the data were processed

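RNA from 4 libraries, 2 per labelled genotype, was analysed from 1 table of read counts per Ensembl gene. Per the submitters' processing notes and methods, mapping by the authors used STAR 2.6.1d on mm10 and quantification used Salmon 1.4.0, and the notes also name Picard 2.26, SAMtools 1.9 and MultiQC 1.11. The deposited values are whole-number counts without normalization. How Salmon's estimates, which may split reads between like sequences, became whole counts, and whether counting used strand are not given in the sources used here, so counts of close paralogs and of genes with overlapping exons are uncertain. Total counts were 22448600, 20755886, 23518045 and 23351087 in M7, M8, M9 and M10, and 0 count columns were without a sample.

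Groups were taken from the sample labels. GENCODE M21 on GRCm38 gave symbols, positions, biotypes and exon lengths and matched 54495 of 54532 genes. Genes that passed filterByExpr (16451) were normalized by TMM (factors 1.22, 1.19, 0.876 and 0.787) and compared by edgeR 4.0.16 in R 4.3.3 (glmQLFit, glmQLFTest, no robust option), adjusted by Benjamini-Hochberg and called under 0.05. Libraries of one genotype differed far beyond sampling noise (chi-square over degrees of freedom 50.6 for M7 and M8, 168 for M9 and M10). On simulated counts for this comparison (15904 genes), edgeR called 15 of 100 genes changed by 1 on the log2 scale, 93 of 100 changed by 2, and 9 unchanged genes. Ratios within a library were compared by an exact two-sided permutation test.

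The members and gene lists were chosen with earlier results of these data known. Every member was to be given, those averaging at least 1 CPM in either genotype with values in each library, and at most 4 genes per pathway list, those with the largest mean CPM. Values of some listed genes are not reported here. Alternatives were DESeq2 1.42.0 size factors and its Wald test, library size only, scaling by the geometric mean of 10 macrophage, 6 pan-leukocyte or 8 fibroblast markers, leaving out mitochondrial and rRNA-like genes, genes with at least 1 count in all or 10 counts in every library, a robust fit, a minimum absolute log2 fold change of 1, and each library left out in turn. With a library left out, the lone library of its genotype was assumed to vary like the pair of the other. Promoter windows came from a RefSeq table on GRCm38.p6, and member windows on chromosome 18, where *Adamts19* lies, were left out.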

Additional observations from a re-analysis of the deposited data

How the results depend on the processing

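With 2 libraries per genotype, most genes changed by 1 on the log2 scale were not called in the simulation, where 100 genes changed. In the data 3729 genes rose and 2747 fell, and smaller changes were called too, such as *Mmp9* (0.83) and *Timp2* (-0.74). The simulation therefore does not give the share of such changes missed here. The zero of every fold change depends on the scaling, whose TMM factors differed between genotypes. No paired analysis was possible because the labels give the libraries of the 2 genotypes no shared replicate numbers. DESeq2 size factors, leaving out mitochondrial and rRNA-like genes and the robust fit changed no call among the 36 genes and *Syk*. With at least 1 count summed over the libraries, 5 MMPs fell, and with at least 10 counts in every library, 1 ADAMTS-like protein fell. With a minimum absolute log2 fold change of 1 also required, 2426 genes rose and 1 TIMP fell. With library size only, 1677 genes rose and 5411 fell, as the median of all genes moved to -0.52. Of the 36 members 4 rose, all of them MMPs (*Mmp9*, *Mmp19* and *Mmp27* lost their call). The MMPs that fell were 8, and *Mmp3* (-1.13), *Mmp14* (-0.78), *Mmp15* (-1.64), *Mmp16* (-1.39) and *Mmp28* (-1.34) gained a call. *Timp1* (-0.80) gained a call too, 7 substrates fell, and *Adamts13* turned to -0.14.

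Scaled to the macrophage markers, 126 genes rose and 14312 fell. Of the members 0 rose and 30 fell (MMPs 0 and 11, TIMPs 4 lower), with 0 and 7 membrane ADAMs, 4 ADAMTS-like proteins lower, 1 and 8 activation and clearance genes, and 8 substrates lower. The reversed values were -2.22 for *Adamts13*, -1.99 for *Mmp9*, -1.84 for *Mmp19*, -0.79 for *Mmp27*, -0.36 for *Mmp13*, -0.28 for *Mmp10* and -0.01 for *Syk*. Scaled to the pan-leukocyte genes, 55 rose and 15270 fell. Of the members 0 rose and 32 fell (MMPs 0 and 13, TIMPs 4 lower), with 0 and 8 membrane ADAMs, 4 ADAMTS-like proteins lower, 0 and 11 activation and clearance genes, and 8 substrates lower. The reversed values were -3.07 for *Adamts13*, -2.81 for *Mmp9*, -2.64 for *Mmp19*, -1.58 for *Mmp27*, -1.19 for *Mmp13*, -1.06 for *Mmp10*, -0.83 for *Syk*, -0.67 for *Mmp12* and -0.24 for *Mmp8*. Scaled to the fibroblast markers, 9987 genes rose and 346 fell. Of the members 11 rose and 5 fell (MMPs 0 lower, ADAMTS 1 and 4, TIMPs 1 and 1), with 8 membrane ADAMs higher, 2 ADAMTS-like proteins higher, 0 activation and clearance genes lower, and 2 and 0 substrates. The reversed values were 1.15 for *Mmp17*, 1.13 for *Timp1*, 1.08 for *Mmp14*, 0.75 for *Mmp3*, 0.62 for *Timp2*, 0.58 for *Mmp16*, 0.55 for *Mmp28*, 0.37 for *Adamts5* and 0.34 for *Mmp15*.

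With each library left out in turn, 1478 to 5010 genes rose and 807 to 4745 fell. Of the members 4 to 8 rose and 13 to 22 fell, with 4 to 8 MMPs higher and 2 to 6 lower, 1 to 3 TIMPs lower, and 0 to 1 ADAMTS-like proteins higher and 1 to 3 lower. *Adamts13* lay between -0.65 (without M10) and 0.96 (without M9), and *Mmp17* between -1.14 (without M9) and 0.19 (without M10). Lengths of principal transcripts were added as an alternative after the data were seen. The causes were not tested.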
